A study of Homo sapiens with 6 samples.

Results

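The genes described here are 44 components of the repair of DNA double-strand breaks and interstrand crosslinks, together with the kinases and mediators that signal such damage. They were chosen by name from these functions, with earlier results of these data known. Of the 44, 40 were measured, meaning that at least 1 probe set (the group of probes that reports 1 transcript) carried that symbol alone, out of 18404 genes measured in this way. BRCA2, RBBP8, FANCA and FANCD2 had no such probe set and are not described further. Each of the 40 measured genes had a single probe set, so no choice between probe sets was needed.

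The cells were HCT116, a long-established line from a human colorectal carcinoma, sorted by CD133, a surface glycoprotein encoded by PROM1. The 6 arrays comprised 3 of the CD133-positive and 3 of the CD133-negative fraction, numbered as repetitions 1, 2 and 3 in each. Both fractions came from the same line, and the labels name no DNA-damaging agent for either. The labels do not say whether the repetitions were separate cultures, sorts or labellings, so the p-values below reflect the spread among the arrays alone, which may be technical. Values are signals made by Robust Multichip Average (RMA) on a log2 scale, so a difference of 1 is a doubling, and they give relative levels of RNA, not of protein or of repair activity. In bulk RNA of this kind, fewer cells with a transcript and less of it per cell cannot be told apart.

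PROM1 was higher in the CD133-positive array of all 3 repetitions. It measured 7.59, 7.36 and 7.09 in the CD133-positive arrays of repetitions 1, 2 and 3, and 5.30, 4.46 and 3.97 in the corresponding CD133-negative arrays. The fractions did not overlap, and the difference of 2.77 had a limma adjusted p of 0.142 with group as the single term and 0.0120 with the repetition as a block. Of 11 colon epithelial markers, 8 exceeded the median probe set at 5.53 as means of 6 arrays, with KRT8, a simple-epithelium keratin gene, highest at 12.02. The 3 below it were KRT20 at 4.09, VIL1 at 4.53 and GPA33 at 4.77, which mark differentiated intestinal epithelium. Of the defining markers of other cell types, 0 of 7 leukocyte, 0 of 5 endothelial and 0 of 3 erythroid markers exceeded that median, as did 1 of 7 fibroblast markers (COL1A1 at 7.47).

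A double-strand break is first bound by sensor complexes that recruit the kinases ATM, ATR and the DNA-dependent protein kinase, which spread a chromatin signal around the break and can halt the cell cycle. The ends are then either joined directly by non-homologous end joining, which acts throughout the cell cycle, or resected and copied from the sister chromatid by homologous recombination, which operates in S and G2 phase. Crosslinks that stall replication forks are unhooked by the Fanconi anaemia pathway, which hands the resulting break to homologous recombination. Many recombination and Fanconi genes are transcribed under control of E2F factors as cells enter S phase, whereas the core end joining genes are expressed more evenly.

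Promoter sequences are shown for the 4 genes with the largest difference of repetition 3 from the other repetitions (FANCM, BLM, BRCA1 and XRCC2) and for the 2 end joining genes with the smallest (NHEJ1 and LIG4). Each comes from RefSeq on GRCh38.p14 and is written 5′ to 3′ on the gene's strand. It runs from 250 bases before to 50 bases after an annotated transcript start. The first listed entry was taken per gene symbol, so any other start of the same gene was not searched. Whether that entry, of BRCA1 for example, lies at the gene's main start was not checked. Capitals mark matches, on either strand, to an E2F motif searched in the forms TTCCCGC and TTGGCGC and in the forms TTCGCGC and TTGCCGC. A second element of cell cycle promoters, the CHR, searched as TTTGAA on both strands, had no match in these 6 windows.
FANCM (chr14:45135680-45135979, plus strand): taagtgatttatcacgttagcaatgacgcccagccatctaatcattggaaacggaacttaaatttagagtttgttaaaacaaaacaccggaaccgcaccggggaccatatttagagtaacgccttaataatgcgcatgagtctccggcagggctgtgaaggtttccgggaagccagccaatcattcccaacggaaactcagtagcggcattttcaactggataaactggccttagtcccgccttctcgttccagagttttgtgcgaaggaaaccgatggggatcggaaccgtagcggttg
BLM (chr15:90717096-90717395, plus strand): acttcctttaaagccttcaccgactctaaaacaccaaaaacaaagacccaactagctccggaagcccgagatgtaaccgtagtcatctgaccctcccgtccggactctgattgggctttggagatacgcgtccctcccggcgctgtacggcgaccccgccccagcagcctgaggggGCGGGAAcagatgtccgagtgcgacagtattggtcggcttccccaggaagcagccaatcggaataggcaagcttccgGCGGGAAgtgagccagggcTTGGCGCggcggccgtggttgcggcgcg
BRCA1 (chr17:43170278-43170577, minus strand): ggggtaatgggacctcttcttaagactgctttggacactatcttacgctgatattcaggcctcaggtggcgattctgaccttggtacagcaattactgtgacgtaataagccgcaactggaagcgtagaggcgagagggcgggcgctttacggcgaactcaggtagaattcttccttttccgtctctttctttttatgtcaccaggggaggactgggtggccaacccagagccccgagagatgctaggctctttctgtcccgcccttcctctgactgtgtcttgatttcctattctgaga
XRCC2 (chr7:152676092-152676391, minus strand): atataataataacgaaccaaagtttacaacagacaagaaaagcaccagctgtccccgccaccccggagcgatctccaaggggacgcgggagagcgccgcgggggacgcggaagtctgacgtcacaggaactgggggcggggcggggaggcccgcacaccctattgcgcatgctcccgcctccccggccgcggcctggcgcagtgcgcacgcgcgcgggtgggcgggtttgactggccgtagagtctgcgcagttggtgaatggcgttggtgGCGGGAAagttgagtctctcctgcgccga
NHEJ1 (chr2:219160766-219161065, minus strand): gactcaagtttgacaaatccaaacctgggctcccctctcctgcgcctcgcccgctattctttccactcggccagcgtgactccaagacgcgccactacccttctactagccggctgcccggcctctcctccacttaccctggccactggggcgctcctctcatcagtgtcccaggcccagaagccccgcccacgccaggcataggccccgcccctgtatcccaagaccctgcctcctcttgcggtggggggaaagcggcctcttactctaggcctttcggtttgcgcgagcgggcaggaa
LIG4 (chr13:108218300-108218599, minus strand): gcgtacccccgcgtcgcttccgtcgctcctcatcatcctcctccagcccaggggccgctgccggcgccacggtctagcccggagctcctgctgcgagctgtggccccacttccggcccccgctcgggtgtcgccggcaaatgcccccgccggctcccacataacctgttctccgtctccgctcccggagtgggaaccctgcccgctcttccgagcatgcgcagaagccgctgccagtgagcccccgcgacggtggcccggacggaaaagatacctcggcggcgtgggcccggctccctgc
BLM held 3 E2F matches and XRCC2 held 1, while FANCM, BRCA1, NHEJ1 and LIG4 held none. A match is a description of letters, not a site, and the absence of a match says only that these letters are not in this window.

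Means over the 6 arrays ran from 5.27 for FANCF and DCLRE1C to 11.29 for XRCC6, and 38 of the 40 genes exceeded the median probe set at 5.53. Signals of different probe sets are not comparable as amounts of RNA, so the genes are not ranked by level.

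**Figure D1:**
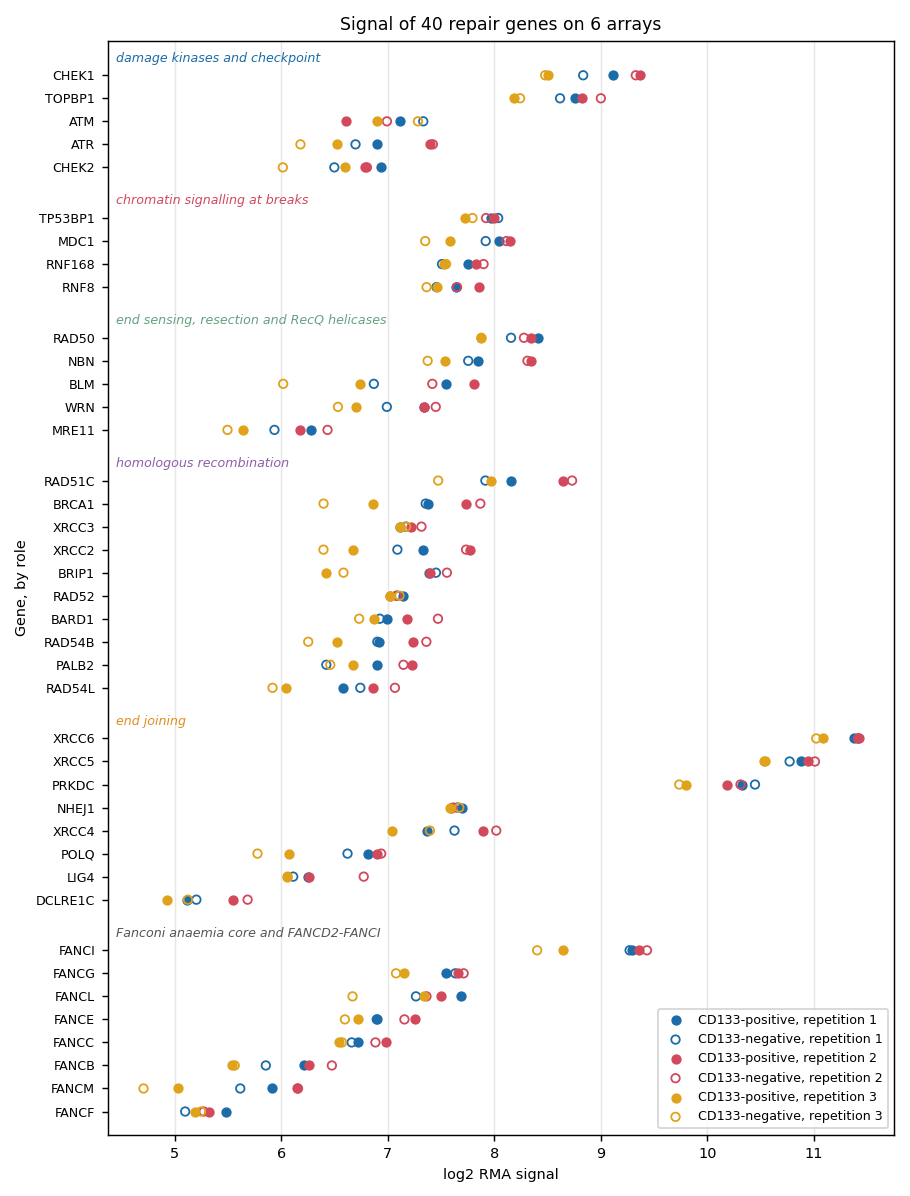
Log2 RMA signal (x axis) of the 40 measured repair genes (y axis, grouped by role and ordered by mean) on each of the 6 arrays; filled points are CD133-positive, open points CD133-negative, and colours give the repetition. For FANCM, BLM, XRCC2 and BRCA1 both arrays of repetition 3 lie below the other 4, whereas NHEJ1 and RAD52 cluster tightly.

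The study's own comparison, CD133-positive against CD133-negative cells, gave no call among the repair genes. With limma and group as the single term, 0 of 40 passed an adjusted p of 0.05 and 0 had an unadjusted p under 0.05. Over all tested probe sets 0.00354% were called and 3.45% had such an unadjusted p. With the repetition as a block, which compares the fractions within each repetition, 0 of 40 were called by limma against a background of 0.298%, and 6 of 40 (15.0%) had an unadjusted p under 0.05 against 11.3%. Fractions did not overlap for 0 of 40 genes, against 7.78% of probe sets.

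CD133-positive minus CD133-negative was above 0 for 26 genes (against 49.4% of probe sets) and below 0 for 14 (50.6%), with a median of 0.06 against -0.002 over all probe sets, and 32 of the 40 were smaller than 0.2 in size. The 95% interval of a single gene reached 0.23 to 0.94 to each side without the block and 0.19 to 0.33 with it, so differences of that size were not excluded. The unadjusted interval left out 0 for 0 of 40 genes without the block and for 6 with it. Within repetitions 1, 2 and 3 the members' median was 0.12, -0.06 and 0.09, with 30, 14 and 24 of 40 higher in CD133-positive cells. The sign was the same in all 3 repetitions for 14 of 40 genes (35.0%), against 33.6% of probe sets. It was higher throughout for 9 and lower throughout for 5, against 16.8% each. The median turned with single arrays left out, since each removal unbalances the repetitions. It became -0.12 and 0.20 when the CD133-negative array of repetition 3 or 2 was dropped, and 0.22 and -0.07 when the CD133-positive array of repetition 3 or 2 was dropped.

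BLM, the RecQ helicase mutated in Bloom syndrome that dissolves joint recombination molecules, had the largest difference of the 40. It measured 7.55, 7.81 and 6.74 in CD133-positive arrays of repetitions 1, 2 and 3 and 6.87, 7.42 and 6.02 in the CD133-negative arrays. The fractions overlapped across repetitions, but the CD133-positive array was the higher of each pair, by 0.68, 0.39 and 0.72. The mean difference was 0.60 (SE 0.10 with the block), or 1.51-fold, with a limma adjusted p of 1 without the block and 0.0916 with it. When probe sets dimmer than the median were left out and the block was kept, an alternative added after the data were seen, the limma adjusted p was 0.0192. In that fit 403 of 14115 probe sets passed, and BLM was 1 of 38 repair genes to do so. Without repetition 1, 2 or 3 the block fit gave BLM limma adjusted p values of 0.245, 0.126 and 0.358. Without the block its difference moved with single arrays. It was 0.22 and 0.92 when the CD133-negative array of repetition 3 or 2 was dropped, and 0.91 and 0.38 for the CD133-positive array of repetition 3 or 2.

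ATM, the kinase activated at double-strand breaks, differed the other way in each pair. Its signals were 7.12, 6.60 and 6.90 in the CD133-positive and 7.33, 6.99 and 7.28 in the CD133-negative arrays of repetitions 1, 2 and 3. The difference of -0.33 (SE 0.08 with the block) had a limma adjusted p of 0.234 with the block and 1 without. CHEK2, a checkpoint kinase downstream of ATM, measured 6.94, 6.79 and 6.59 in CD133-positive and 6.50, 6.80 and 6.02 in CD133-negative arrays. It had a difference of 0.33 (SE 0.13) that rested on repetitions 1 and 3, at 0.44 and 0.58, against -0.02 in repetition 2. Its limma adjusted p with the block was 0.405. Without the block, ATM became -0.19 and -0.45 when the CD133-positive array of repetition 2 or 1 was dropped, and -0.43 for the CD133-negative array of repetition 2. CHEK2 became 0.12 and 0.52 when the CD133-negative array of repetition 3 or 2 was dropped.

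FANCL, the ubiquitin ligase subunit of the Fanconi anaemia core complex, measured 7.68, 7.50 and 7.34 in CD133-positive and 7.26, 7.36 and 6.67 in CD133-negative arrays. It was higher in CD133-positive cells in 3 of 3 repetitions, by 0.42, 0.14 and 0.67, with a mean of 0.41 (SE 0.12) and a limma adjusted p of 0.271 with the block. XRCC4, the scaffold that holds DNA ligase IV in end joining, measured 7.37, 7.90 and 7.04 against 7.63, 8.02 and 7.40. Its difference was below 0 in 3 of 3 repetitions, with a mean of -0.25 (SE 0.09) and a limma adjusted p of 0.369 with the block. For these genes too the fractions overlapped across repetitions and no difference passed. Without the block, FANCL became 0.20 and 0.54 when the CD133-negative array of repetition 3 or 2 was dropped. XRCC4 became -0.05 and -0.48 for the CD133-positive array of repetition 3 or 2, and -0.39 and -0.08 for the CD133-negative array of repetition 3 or 2.

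**Figure D2:**
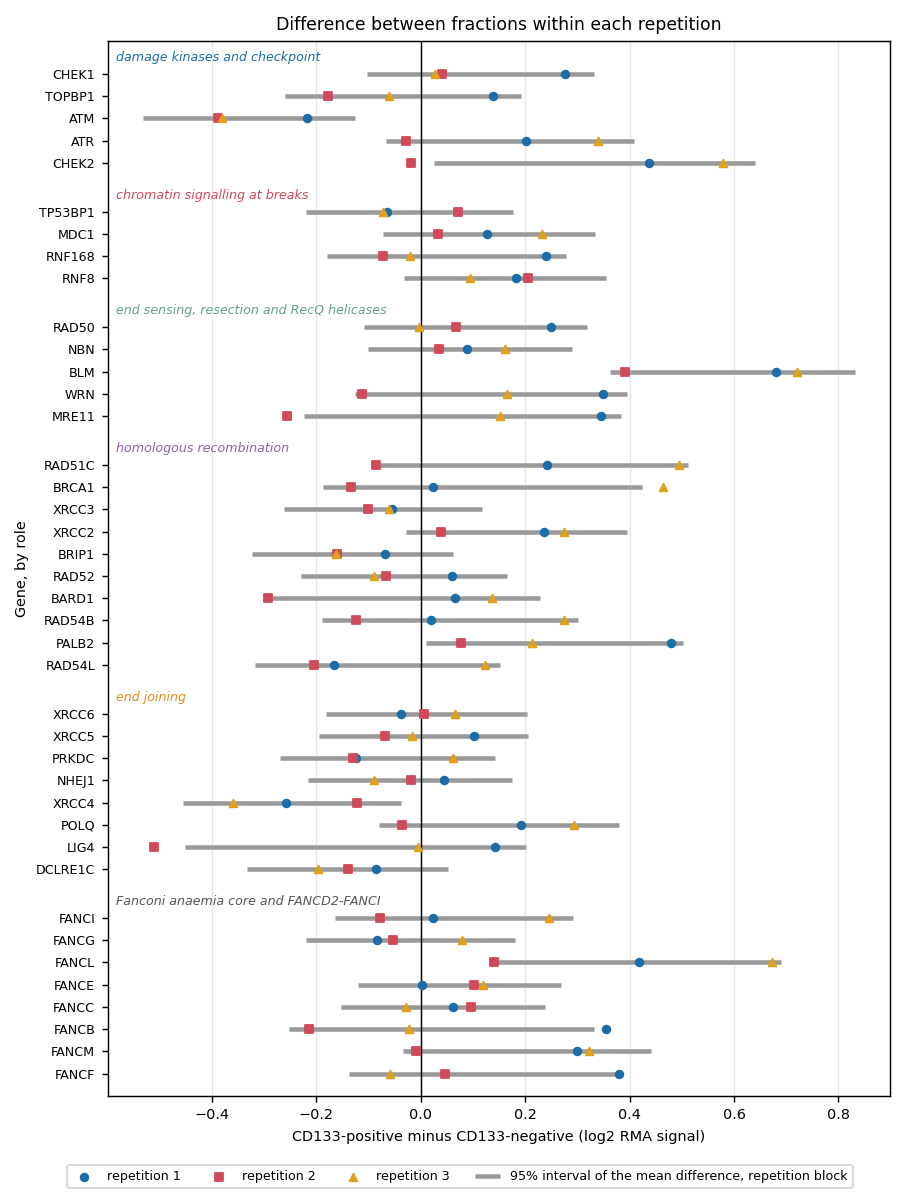
CD133-positive minus CD133-negative signal (x axis, log2 RMA) of each repair gene (y axis, by role) within repetitions 1, 2 and 3 (points); bars are 95% intervals of the mean difference from the limma fit with a repetition block, not adjusted for the number of genes. The bars of 34 of 40 genes hold 0, and BLM at 0.60 and ATM at -0.33 lie farthest from it on either side.

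The repetitions separated these genes far more than the fractions did. Repetition accounted for a median of 91.2% of a repair gene's sum of squares over the 6 arrays and the fraction for 3.1%. Over all probe sets these medians were 63.5% and 8.7%. Repetition has more degrees of freedom than the fraction, so random spread alone would on average give it the larger share. The shares are therefore set beside those of all probe sets. Repetition held more than 50% for 37 of 40 genes, against 63.1% of probe sets, the exceptions being FANCF, RAD52 and FANCL. The fraction was the largest part for 0 of 40 genes, against 12.2% of probe sets. In both fractions alike, repetition 3 was the lowest of the repetitions for 33 of 40 genes, against 18.4% of probe sets, and repetition 2 was the highest for 28 of 40, against 21.4%.

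Each repetition was compared with the mean of the other repetitions in a limma fit with fraction and repetition as terms. The 3 comparisons share arrays and sum to 0, so they are not independent, and each was adjusted over all tested probe sets on its own. The residual of this fit is the disagreement between the 2 fractions across repetitions. Repetition 3 was lower for 25 of 40 genes that passed, against 6.16% of probe sets called lower, and higher for 0 of 40, against 4.16%. Repetition 2 was higher for 22 of 40 that passed, against 8.83% of probe sets called higher, and lower for 1, against 5.81%. Repetition 1 gave 0 calls among 40 with limma, with 6 at an unadjusted p under 0.05, against 0.4% of probe sets called and 15% at that unadjusted p.

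Calls in either direction in repetition 2 covered 14.6% of probe sets. Before any test, 39 of 40 genes were below 0 in repetition 3 (against 42.4% of probe sets) and 37 were above 0 in repetition 2 (44.7%). Both arrays of repetition 3 lay below the other 4 for 27 genes (13.1% of probe sets), and both of repetition 2 above them for 26 (16.9%). The median over the 40 was 0.07 in repetition 1, 0.46 in repetition 2 and -0.52 in repetition 3, against -0.02, -0.03 and 0.04 over all probe sets. Within the CD133-positive arrays alone the repetition 3 median was -0.45, with 39 of 40 genes lower, and within the CD133-negative arrays alone it was -0.60, with 36 of 40 lower. The number of calls depended on single arrays, each removal leaving 1 residual degree of freedom. The share of all probe sets called in these fits, and in the fit without the fraction term, is not given here. Their counts of repair genes therefore have no background beside them, and the shares above do not apply to them. For repetition 3 the 25 calls became 17 and 7 when the CD133-negative array of repetition 1 or 2 was dropped, and 9 and 22 for the CD133-positive array of repetition 1 or 2. They became 0 with limma when either array of repetition 3, CD133-positive or CD133-negative, was dropped, where 29 and 27 genes had an unadjusted p under 0.05. For repetition 2 the 23 calls in either direction became 18, 7 and 15 when the CD133-positive array of repetition 1, 2 or 3 was dropped. They became 14, 0 and 13 with limma for the CD133-negative arrays in the same order; where none passed, 21 genes had an unadjusted p under 0.05. Without the fraction term 18 members were called lower in repetition 3, and the 7 calls that ended were BLM, RAD50, RAD51C, XRCC4, XRCC6, DCLRE1C and FANCE. The repetition 3 median lay between -0.60 and -0.45 in these fits and the repetition 2 median between 0.34 and 0.54.

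Centring each array on its own median moved the typical probe set by 0.11 in repetition 2 and by -0.11 in repetition 3. This subtracts one constant per array, so it leaves the distance between the members and all probe sets as it was. Over all probe sets the split of calls moved with this choice, from 2493 higher and 1640 lower to 4209 and 825 in repetition 2, and from 1173 and 1740 to 563 and 3518 in repetition 3.

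**Figure D3:**
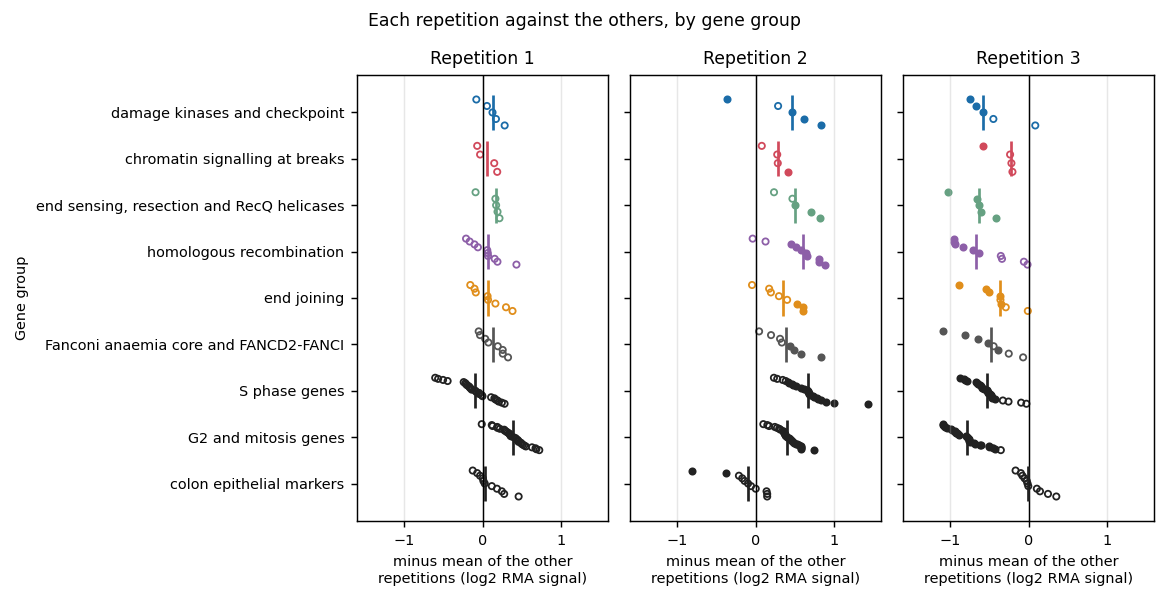
Difference of each repetition from the mean of the other repetitions (x axis, log2 RMA signal, one panel per repetition) for single genes (points) in the 6 repair role classes, S phase genes, G2 and mitosis genes and colon epithelial markers (y axis); filled points passed an adjusted p of 0.05 in limma and vertical bars are medians. In repetition 3 every repair class has a median below 0, from -0.23 to -0.68, while colon epithelial markers have a median of -0.02.

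Among the 5 damage kinases and checkpoint genes, 3 fell in repetition 3 (ATR, CHEK1 and TOPBP1) and the same 3 rose in repetition 2. ATR, the kinase of stalled forks and resected ends, measured 6.90, 7.40 and 6.52 in CD133-positive and 6.70, 7.42 and 6.18 in CD133-negative arrays of repetitions 1, 2 and 3. Both repetition 3 arrays lay below the other 4 and both repetition 2 arrays above. The difference of repetition 3 was -0.75 (SE 0.10; limma adjusted p = 0.0205) and that of repetition 2 was 0.83 (0.0105).

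CHEK1, the effector kinase of ATR, followed the same order. Its signals were 9.11, 9.37 and 8.50 in CD133-positive and 8.83, 9.33 and 8.48 in CD133-negative arrays, with a repetition 3 difference of -0.67 (SE 0.10; limma adjusted p = 0.0212). TOPBP1, the activator of ATR, fell by 0.59 in repetition 3. ATM did not share this order. It was lowest in repetition 2 in both fractions, fell by 0.36 there (limma adjusted p = 0.0442), and had a difference of 0.08 in repetition 3 (0.567), which was -0.02 after centring on array medians. CHEK2 had a repetition 3 difference of -0.45 that did not pass (0.0779).

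The 4 genes of chromatin signalling at breaks moved least as a class, with a repetition 3 median of -0.23. MDC1, the scaffold that reads phosphorylated histone H2AX, measured 8.05, 8.15 and 7.58 in CD133-positive and 7.92, 8.11 and 7.35 in CD133-negative arrays, and fell by 0.59 in repetition 3 (limma adjusted p = 0.0227). Both arrays of repetition 3 were below the other 4. The ubiquitin ligase genes RNF8 and RNF168, which act in turn after MDC1, had differences of -0.24 and -0.21, and TP53BP1, which shields ends from resection, had -0.22. RNF8 measured 7.64, 7.86 and 7.46 in CD133-positive and 7.46, 7.65 and 7.36 in CD133-negative arrays. RNF168 measured 7.75, 7.83 and 7.53 against 7.51, 7.90 and 7.55, so that its CD133-negative repetition 1 was as low as repetition 3. None of these 3 genes passed (limma adjusted p = 0.113, 0.207 and 0.140). RNF8 passed when dim probe sets were left out and after centring on array medians, where its difference was -0.34.

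All 5 measured genes of end sensing, resection and RecQ unwinding fell in repetition 3. BLM, whose signals are given above, fell by 1.03 (SE 0.10; limma adjusted p = 0.0164), or 2.05-fold, and its lowest value was the CD133-negative array of repetition 3. Without the fraction term its limma adjusted p was 0.0653. WRN, the helicase of Werner syndrome, measured 7.34, 7.34 and 6.70 in CD133-positive and 6.99, 7.45 and 6.53 in CD133-negative arrays and fell by 0.66. Both repetition 3 arrays were again the lowest for each gene.

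The 3 subunits of the MRE11-RAD50-NBN complex, which tethers ends and begins resection, fell together. MRE11, the nuclease, fell by 0.64 (limma adjusted p = 0.0389), NBN, the adaptor that recruits ATM, fell by 0.61 (0.0208) and RAD50, the tethering ATPase, fell by 0.42 (0.0437). RAD50 had the smallest change of the class and measured 8.41, 8.35 and 7.88 in CD133-positive and 8.16, 8.28 and 7.88 in CD133-negative arrays. Its call ended after repeated quantile normalization, with a difference of -0.31, and without the fraction term. In repetition 2 NBN rose by 0.70 (limma adjusted p = 0.0104), whereas MRE11 and RAD50 had differences of 0.47 and 0.23 that did not pass.

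Homologous recombination genes differed widely among themselves. Of 10 measured genes, 6 fell in repetition 3 (BRCA1, XRCC2, BRIP1, RAD54L, RAD54B and RAD51C) and 8 rose in repetition 2, those 6 with BARD1 and PALB2. BRCA1, which promotes resection and strand invasion, measured 7.38, 7.74 and 6.86 in CD133-positive and 7.36, 7.87 and 6.40 in CD133-negative arrays. The repetition 3 difference was -0.96 (SE 0.13; limma adjusted p = 0.0208) and the repetition 2 difference 0.80 (0.0164).

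XRCC2, a homologous recombination factor, measured 7.33, 7.77 and 6.67 in CD133-positive and 7.09, 7.74 and 6.40 in CD133-negative arrays. It fell by 0.95 in repetition 3 (SE 0.09; limma adjusted p = 0.0164) and rose by 0.88 in repetition 2 (0.00888). The order of the repetitions was the same in both fractions, with no overlap between them. BRIP1, the helicase partner of BRCA1, fell by 0.94, the motor proteins RAD54L and RAD54B by 0.83 and 0.72, and RAD51C, another recombination factor, by 0.64.

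In repetition 3 the other 4 recombination genes did not pass. BARD1, the obligate partner of BRCA1, and PALB2, which links BRCA1 to BRCA2, had repetition 3 differences of -0.34 and -0.36 that did not pass (limma adjusted p = 0.0981 and 0.0800). RAD52, an annealing factor, measured 7.15, 7.02 and 7.02 in CD133-positive and 7.09, 7.08 and 7.11 in CD133-negative arrays, and XRCC3, also a recombination factor, had a difference of -0.06. The RAD52 difference was -0.02 (limma adjusted p = 0.912; 95% interval -0.23 to 0.19), and its sign turned after repeated quantile normalization.

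Among the 8 end joining genes, 5 fell in repetition 3. POLQ, the polymerase of the alternative, microhomology-mediated route, had the largest change and measured 6.82, 6.90 and 6.07 in CD133-positive and 6.62, 6.94 and 5.78 in CD133-negative arrays. It fell by 0.90 (SE 0.10; limma adjusted p = 0.0171). PRKDC, the catalytic subunit of the DNA-dependent protein kinase, measured 10.32, 10.18 and 9.80 against 10.45, 10.31 and 9.74 and fell by 0.55 (0.0261), with both repetition 3 arrays below the other 4.

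The Ku subunits that bind the ends changed less. XRCC6, encoding Ku70, fell by 0.35 in repetition 3 (limma adjusted p = 0.0496), and XRCC5, encoding Ku80, had a difference of -0.36 that did not pass (0.0510), so the 2 subunits lay on either side of the threshold with nearly equal values. XRCC4 fell by 0.51 and DCLRE1C, the end-trimming nuclease Artemis, by 0.36. These calls and that of XRCC6 ended without the fraction term. The mean of DCLRE1C, 5.27, lies below the median probe set at 5.53, and its detection above background was not assessed. LIG4, the ligase, had -0.29 (0.212). NHEJ1, the bridging factor XLF, measured 7.70, 7.59 and 7.58 in CD133-positive and 7.65, 7.61 and 7.67 in CD133-negative arrays, with a repetition 3 difference of -0.01 (95% interval -0.22 to 0.19; its sign turned after repeated quantile normalization).

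Of the 8 measured Fanconi anaemia genes, 5 fell in repetition 3 (FANCM, FANCI, FANCB, FANCG and FANCE). FANCM, the translocase that recruits the core complex to stalled forks, had the largest measured difference of the 40 genes. It measured 5.91, 6.15 and 5.03 in CD133-positive and 5.62, 6.16 and 4.71 in CD133-negative arrays, a difference of -1.09 (SE 0.10; limma adjusted p = 0.0161). Its repetition 3 signals lie below the median probe set, and detection above background was not assessed there, so no fold is given. FANCI, the partner of FANCD2 in the monoubiquitinated clamp, measured 9.29, 9.36 and 8.65 against 9.27, 9.43 and 8.40 and fell by 0.81 (0.0179).

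The core complex subunits were less uniform. FANCB, FANCG and FANCE fell by 0.65, 0.52 and 0.40, while FANCL and FANCC had -0.45 and -0.26 that did not pass (limma adjusted p = 0.0641 and 0.0985). FANCF, an adaptor of the core complex, measured 5.48, 5.32 and 5.19 in CD133-positive and 5.10, 5.27 and 5.25 in CD133-negative arrays, with no common order of repetitions and a difference of -0.07 (0.699). It was also the gene with the smallest share of its sum of squares between repetitions, 8.7%. All its signals lie below the median probe set at 5.53, and detection above background was not assessed there.

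Other genes of the same pathways came from lists that do not include the 40. Of 78 measured, 29 fell in repetition 3 and 1 rose, against 6.16% and 4.16% of all probe sets, with a median of -0.29. Of recombination and resection genes 13 of 32 fell, of crosslink repair genes 5 of 17, of end joining and break signalling genes 4 of 18 and of checkpoint genes 7 of 11. CLSPN, the mediator of CHEK1 activation, fell by 0.98, DCLRE1A, a crosslink nuclease gene, by 0.97 and GEN1, a Holliday junction resolvase gene, by 0.96. RAD17, the loader of the checkpoint clamp, was the 1 gene that rose, by 0.54 (limma adjusted p = 0.0307). In repetition 2, 29 rose, against 8.83% of probe sets, led by the phosphatase gene CDC25A at 1.29, CLSPN at 1.24 and DCLRE1A at 1.05, and RAD17 fell by 0.41. Between the fractions 0 of the 78 passed in limma without or with the block, with 0 and 4 at an unadjusted p under 0.05, against 3.45% and 11.3% of probe sets.

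Cell cycle genes moved with the repair genes across repetitions, and their part in the result was not tested. S phase genes fell in repetition 3 in 21 of 25 members (median -0.53) and rose in repetition 2 in 21 of 25 (median 0.66). G2 and mitosis genes fell in repetition 3 in 26 of 29 members (median -0.79) and rose in repetition 2 in 16 of 29 (median 0.40). In repetition 1 these lists parted, at -0.09 for S phase and 0.39 for G2 and mitosis genes with 0 calls in limma in either (8 of 25 and 21 of 29 at an unadjusted p under 0.05), and the repair genes lay between them at 0.07. Colon epithelial markers had 0 of 11 calls in repetition 3 with limma (2 at an unadjusted p under 0.05) and a median of -0.02. In repetition 2, 8 of 11 were below 0 with a median of -0.10, and 2 fell, CDH1 by 0.81 and KRT19 by 0.37. Leukocyte markers were above 0 in 7 of 7, fibroblast markers in 7 of 7 and erythroid markers in 3 of 3 in repetition 3. Of all probe sets, 16270 of 28230 were above 0 there. The medians of these markers were 0.23, 0.16 and 0.25 with 1 call (a leukocyte marker). Their median levels of 3.9, 5.2 and 4.7 lie below the median probe set at 5.53. Detection above background was not assessed, and their part was not tested. In repetition 2 leukocyte markers were below 0 in 5 of 7, fibroblast markers in 6 of 7 and erythroid markers in 3 of 3, and COL1A1 fell by 0.86.

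By array, the mean over the 40 repair genes departed from its 6-array mean by 0.12 and -0.01 in CD133-positive and CD133-negative repetition 1. The departures were 0.25 and 0.31 in repetition 2, and -0.28 and -0.40 in repetition 3. S phase genes gave -0.03, -0.11, 0.41, 0.43, -0.24 and -0.47 in the same order. The CD133-negative array of repetition 3 was thus the lowest and that of repetition 2 the highest for both lists.

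**Figure D4:**
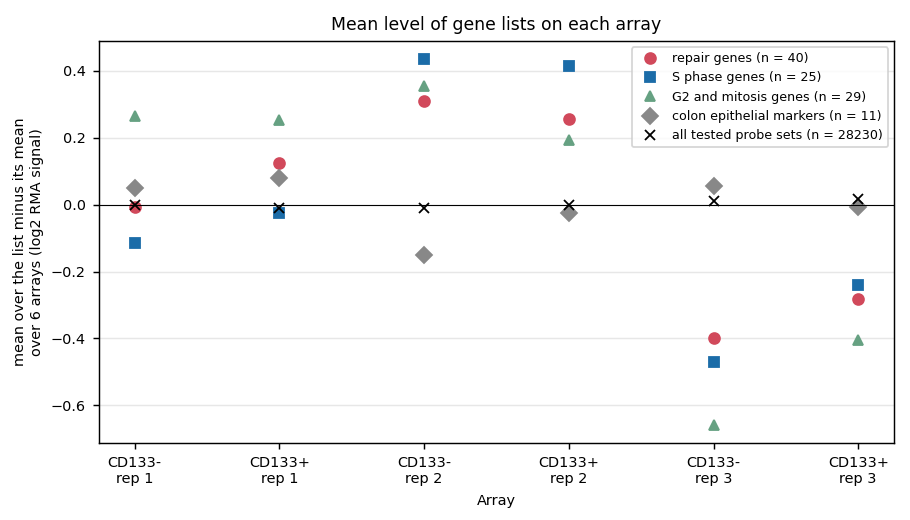
Mean log2 RMA signal of each gene list on each array (x axis) minus that list's mean over the 6 arrays (y axis), for the repair genes, S phase genes, G2 and mitosis genes, colon epithelial markers and all tested probe sets; each point is 1 array. The repair genes range from -0.40 to 0.31, and the points of all probe sets lie near 0 because RMA brings the arrays to nearly the same distribution.

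A RefSeq promoter entry of 300 bases was matched for 34 of the 40. An E2F match was present in 16 of these 34 (47.1%), against 17.5% of 14230 promoters of genes on the array and 13.1% of all 27305 promoters. Of the 20 genes that fell in repetition 3, 10 held one, as did 6 of the 14 that did not pass. FANCM and BRCA1, whose printed windows hold no capitals, were among the genes with the largest falls. The BRCA1 window was not checked to lie at the main start, so it may not show the main BRCA1 promoter. RAD52, XRCC3 and FANCF each held an E2F match with differences between -0.02 and -0.07. All these counts rest on a single window per gene. A match near another transcript start, of BRCA1 for example, would not be counted. A CHR match was present in 5 of 34 (14.7%), against 11.9% of promoters of genes on the array. The GC box, searched as GGGCGG on both strands, was present in 79.4% against 60.0%, and CCAAT, also on both strands, in 17 of 34 genes against 36.3%. One stretch of letters can count for an E2F form and also for the GC box or CCAAT. These shares describe letters in the windows and were not tested.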

How the data were processed

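Total RNA of sorted HCT116 cells was labelled with biotin and measured on 6 Affymetrix arrays, as the labels' protocols state. The deposited values are log2 signals made by the authors with RMA, per the labels' design text and the submitters' processing notes; their range, 1.09 to 13.7, gave the scale. The design text names a U133 array, but the row identifiers and annotation belong to a Human Gene ST array, whose symbols name the genes here. The first 4091 of 32321 rows form a block that was taken for control probes and dropped, a choice made with the table in view, leaving 28230 probe sets, with no filter on dim signals. The number of arrays limits the precision.

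Fits used limma 3.58.1 in R 4.3.3 on the whole table, two-sided, with Benjamini-Hochberg adjustment at 0.05. The fraction comparison had group as its single term, with a repetition block as the alternative. Same-numbered arrays deviated together from their group means (correlations 0.447 to 0.616 in 3 pairs), so the numbers pair the arrays by the data; no label ties them to a day or culture. An exact test of 3 arrays against 3 cannot go below p = 0.1. The fits were tested on simulated arrays with the residual spread of the fit on fraction and repetition. For repetition 3, 0 of 50 added changes of 0.5 and 24 of 50 of 1.0 passed in limma, with 0 unchanged probe sets called. Between fractions, 15 of 50 and 45 of 50 passed, with 6 unchanged probe sets called. That simulation had no spread between repetitions, which the real fit with group alone carries, so its recovery does not apply to that fit. The simulation for repetition 3 changed far fewer probe sets than the real fit called, 1173 higher and 1740 lower. Its Benjamini-Hochberg cutoff was therefore stricter, and the real fit called smaller changes, for example XRCC6 at -0.35. The recovery for repetition 3 thus does not apply to the real fit either.

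The members and lists were chosen with earlier results of these data known. Genes given with every array were, per role class, the 2 with the largest and the 1 with the smallest repetition 3 difference, and the 4 with the smallest p between fractions in each fit. Of the other pathway genes, the 3 largest calls per direction were named. Other genes appear by value or count.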

Additional observations from a re-analysis of the deposited data

How the results depend on the processing

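The count of probe sets past the threshold between fractions, 1 with group as the only term, became 84 with the replicate block, 0 after repeated quantile normalization and 0 after centring on array medians (limma; 1102 and 906 at an unadjusted p under 0.05). With the block it was 403 without dim probe sets, 67 after quantile normalization, 84 after centring and 94 with the mean of probe sets, alternatives added after the data were seen. Leaving out arrays or repetitions gave 0 to 43. Among the repair genes the fraction count of 0 became 1 of 38 (BLM) without dim probe sets and with the block. Fewer probe sets are adjusted over in that fit, and 403 of 14115 passed. In repetition 1, 2 genes (BRIP1 and PRKDC) passed without dim probe sets, and 0 in the other fits. Leaving out single arrays gave 0 to 18 members in repetition 2 and 0 to 22 in repetition 3. The sign in repetition 3 turned for RAD52 (0.023) and NHEJ1 (0.085) after quantile normalization and for ATM (-0.023) after centring. With arrays left out it ranged from -0.061 to 0.026 for RAD52, from -0.064 to 0.039 for NHEJ1 and from -0.209 to 0.063 for FANCF. For repetitions, the share of all probe sets called with arrays left out is not given here, so those member counts have no background beside them. The causes were not tested. The block changed no other call among these genes.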
